A study of Mus musculus with 2 samples.

Results

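The genes described here are 10 genes of adipocytes and lipid storage, chosen by symbol from the 33640 genes of the TPM table, in mitral valves of mice. They are Lpl, Cd36, Fabp4, Pparg, Scd1, Plin1, Cidec, Adipoq, Cfd and Retn. The mutant pool came from mice heterozygous for the C1039G allele of Fbn1 (Fbn1C1039G/+), the fibrillin-1 gene, and the wild-type pool from mice without that allele. Both genotypes were 5 months old, each pool held 8 valves of male and female mice, and 1 library was made per pool. There were thus no replicates and no test could be run, and each comparison is of these libraries alone. The sources used here do not give the strain or the number of males in each pool.

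Adipocytes store fatty acids as triglyceride in lipid droplets. Lipoprotein lipase releases fatty acids from circulating lipoproteins at the capillary wall, CD36 carries them across cell membranes, and fatty acid binding proteins carry them inside the cell. Stearoyl-CoA desaturase makes monounsaturated fatty acids, perilipin-1 and CIDEC coat and enlarge the droplet, and the nuclear receptor PPAR-gamma switches on much of this programme. Adiponectin, adipsin (Cfd) and resistin are proteins that mouse adipocytes secrete. Several of these genes are also used outside fat. Heart muscle and macrophages express Lpl, capillary endothelium and macrophages express Cd36 and Fabp4, and many cell types express Scd1. The mitral valve is a thin connective tissue leaflet covered by endothelium, and fat can lie in the groove near its attachment.

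Genes of fatty acid uptake and desaturation were well expressed in both pools, whereas Adipoq, Cidec and Cfd, which mark mature adipocytes, were below 1 TPM in both and Plin1 was just above it. TPM is a transcript level scaled for transcript length and for the library's total, so levels can be set beside each other between genes. Lpl, Cd36 and Scd1 together made up 88.4% of the summed TPM of the 10 genes in the mutant pool and 87.3% in the wild-type pool. Adipoq, Cidec, Cfd and Plin1 together reached 1.48 TPM in the mutant pool and 2.27 TPM in the wild-type pool. The leptin gene Lep, another adipocyte hormone, was listed at 0 in both. Of 18 further genes of mature adipocytes, Lep among them, 16 averaged at least 1 TPM, such as Lipe at 14.0 TPM in the mutant pool and 10.5 TPM in the wild-type pool. The adipocyte markers were thus mixed, and which cells the values come from was not tested.

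The mutant pool had less TPM of Lpl, Cd36, Scd1, Fabp4 and Pparg, by 13.2% to 41.4%. The sum over the 10 genes was 219 TPM in the mutant pool and 291 TPM in the wild-type pool. None of the genes with a measurable level differed by 2-fold. A gene was called 2-fold different when subtracting its wild-type log2(TPM + 1) from its mutant log2(TPM + 1) gave at least 1 in size and its mean TPM over both pools was at least 1. Of the 10 genes, 7 reached that mean, and 0 were at least 2-fold lower and 0 at least 2-fold higher. Among all 17004 genes with such a mean, 1.72% were at least 2-fold lower and 4.81% at least 2-fold higher. A count of 0 among 7 genes is close to these background shares. Of the 7, 5 had a difference below 0 and 2 above it, against 35.1% below 0 among all 17004 genes. Their median difference was −0.39, and the median over all 17004 genes was 0.14. In bulk tissue, fewer cells of a type and less RNA per cell cannot be told apart.

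**Figure D1:**
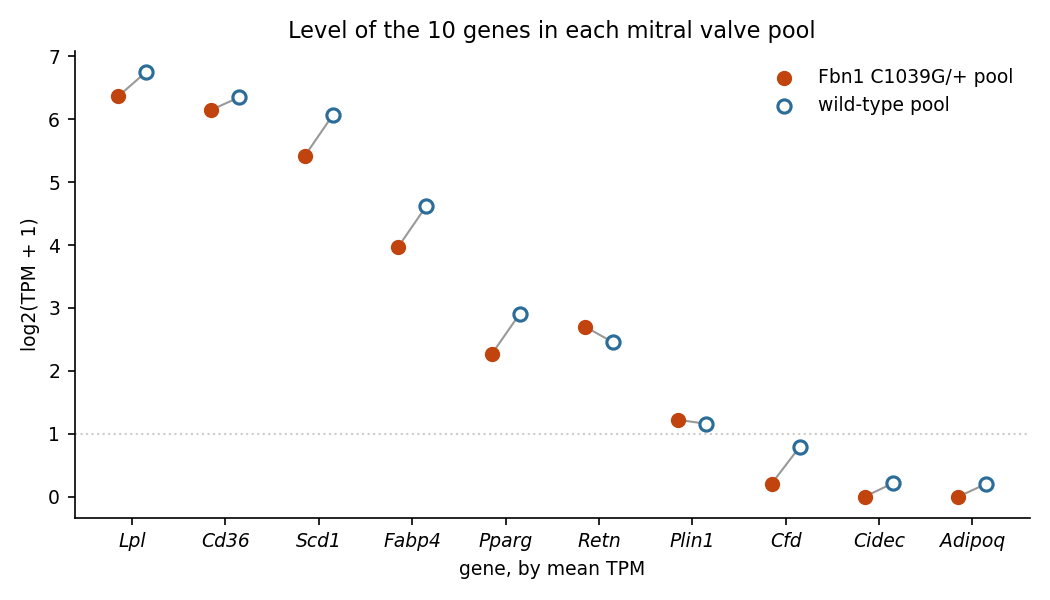
Level of each of the 10 genes, as log2(TPM + 1), in the mutant pool (filled orange, left of each pair) and the wild-type pool (open blue, right), with 1 library per pool and genes ordered by mean TPM. Lpl, Cd36 and Scd1 stand highest, Cidec and Adipoq are listed at 0 in the mutant pool, and the dotted line marks 1 TPM.

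Lpl, lipoprotein lipase, was the most abundant of the 10 genes. It was at 81.4 TPM in the mutant pool and 106.9 TPM in the wild-type pool, a difference of −0.39 in log2(TPM + 1). It ranked 1907 of the 17004 genes in the mutant pool and 1198 in the wild-type pool, counted from the highest. Lpl lies on chromosome 8 at 68880491 to 68907448 on the plus strand (GRCm38, ENSMUSG00000015568.16).

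Cd36, the fatty acid translocase, was second in mean TPM. It was at 70.1 TPM in the mutant pool and 80.8 TPM in the wild-type pool, a difference of −0.20, the smallest of the 5 genes that were lower. Lpl was thus at 1.16 times the level of Cd36 in the mutant pool and at 1.32 times in the wild-type pool. Cd36 lies on chromosome 5 at 17781690 to 17888801 on the minus strand (ENSMUSG00000002944.15).

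Partners of Lpl and Cd36 in fatty acid delivery lay on both sides of 0. Of 18 listed genes, 15 had a mean TPM of at least 1, and 12 of these were higher and 3 lower in the mutant pool, with a median difference of 0.27. Among all 17004 genes 35.1% were lower, 1.72% at least 2-fold lower and 4.81% at least 2-fold higher, and the median was 0.14. The summed level of the list was lower in the mutant pool, 429 TPM against 468 TPM in the wild-type pool. Fabp3, its most abundant gene, was at 91.4 TPM in the mutant pool and 180 TPM in the wild-type pool (−0.97). Gpihbp1, which anchors lipoprotein lipase on capillary endothelium, was at 1.65 TPM in the mutant pool and 4.42 TPM in the wild-type pool, and was the 1 partner at least 2-fold lower (−1.03). Apoc2, the activator of the enzyme, was at 2.84 TPM in the mutant pool and 0.274 TPM in the wild-type pool, and was the 1 partner at least 2-fold higher (1.59). Both are low values, which few reads may carry. Lmf1, needed to fold the enzyme, was at 25.7 TPM in the mutant pool and 24.8 TPM in the wild-type pool. Angptl4, which inhibits it, was at 20.2 TPM in the mutant pool and 16.3 TPM in the wild-type pool. The fatty acid transporter gene Slc27a1 was at 51.9 TPM in the mutant pool and 45.8 TPM in the wild-type pool.

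Fabp4 encodes the fatty acid binding protein of adipocytes, which macrophages and capillary endothelium also make. It was at 14.7 TPM in the mutant pool and 23.6 TPM in the wild-type pool, a difference of −0.65. Its level was 0.623 times that of the wild-type pool. Fabp4 lies on chromosome 3 at 10204088 to 10208576 on the minus strand (ENSMUSG00000062515.3), in a cluster with Pmp2, Fabp9, Fabp12 and Fabp5. Of these neighbours Fabp5 alone had a mean TPM of at least 1, at 68.9 TPM in the mutant pool and 56.5 TPM in the wild-type pool, so that it went the other way. Fabp4 was at 0.213 times the level of Fabp5 in the mutant pool and at 0.417 times in the wild-type pool. Fabp3, the heart form, on chromosome 4, was the most abundant of the family, at 91.4 TPM in the mutant pool and 180 TPM in the wild-type pool. Its difference of −0.97 lay just inside the 2-fold limit. Fabp1, Fabp2, Fabp6, Fabp9 and Pmp2 were listed at 0 in both pools.

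Scd1, stearoyl-CoA desaturase 1, was at 41.8 TPM in the mutant pool and 66.1 TPM in the wild-type pool, a difference of −0.65. It lies on chromosome 19 at 44394455 to 44407879 on the minus strand (ENSMUSG00000037071.3), beside its relatives Scd2, Scd3 and Scd4. Scd2 was at 41.2 TPM in the mutant pool and 59.3 TPM in the wild-type pool (−0.52). Scd3 was at 15.1 TPM in the mutant pool and 9.99 TPM in the wild-type pool (0.55), and Scd4 at 2.43 TPM in the mutant pool and 1.55 TPM in the wild-type pool (0.43). The abundant members of the family were thus lower and the scarce ones higher.

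These genes resemble each other closely, which bears on how reads are divided among them. The coding sequence of Scd1 was 89.6% identical to that of Scd2, 90.4% to Scd3 and 84.3% to Scd4. Of the 4880 distinct runs of 31 bases in Scd1 transcripts, 8.18% were also found in transcripts of other genes, 285 of them in Scd3, 253 in Scd2 and 166 in Scd4. The longest stretch that all 4 coding sequences share is shown in capitals below, with 20 bases of Scd1 on each side, because a read inside it could come from any of them. It covers coding bases 586 to 646 of Scd1, split by an intron within chr19:44400364-44401742 (GRCm38, minus strand, GENCODE transcript).
Scd1 coding sequence: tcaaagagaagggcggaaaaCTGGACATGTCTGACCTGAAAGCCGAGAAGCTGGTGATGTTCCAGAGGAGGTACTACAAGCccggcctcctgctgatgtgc
Summed over the 4 genes, which depends less on how reads were divided among them, the family was at 100.5 TPM in the mutant pool and 137 TPM in the wild-type pool, a difference of −0.44 on the log2(TPM + 1) scale. Scd1 took 41.6% of that sum in the mutant pool and 48.3% in the wild-type pool.

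**Figure D2:**
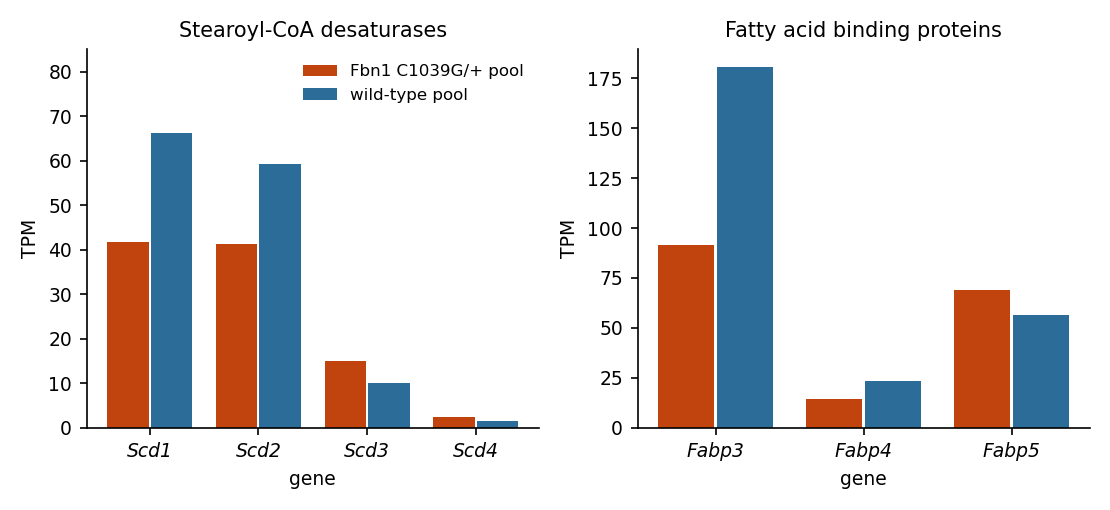
TPM of the stearoyl-CoA desaturase genes (left) and of the 3 fatty acid binding protein genes averaging at least 1 TPM (right) in the mutant pool (orange) and the wild-type pool (blue), 1 library each. Scd1, Scd2, Fabp3 and Fabp4 are lower in the mutant pool, while Scd3, Scd4 and Fabp5 are higher.

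Other enzymes of fatty acid synthesis were mixed. Of 20 listed genes, 19 had a mean TPM of at least 1, with 10 higher and 9 lower in the mutant pool, 0 of them by 2-fold, and a median difference of 0.02. By comparison, 35.1% of all 17004 genes were lower, 1.72% at least 2-fold lower and 4.81% at least 2-fold higher, with a median of 0.14. Fasn, fatty acid synthase, was at 15.1 TPM in the mutant pool and 24.6 TPM in the wild-type pool (−0.67), the lowest difference of the list. Acaca, which makes its substrate malonyl-CoA, was at 29.2 TPM in the mutant pool and 23.7 TPM in the wild-type pool. Acss2, an acetyl-CoA synthetase, had the highest difference, 0.55, at 14.8 TPM in the mutant pool and 9.78 TPM in the wild-type pool. Srebf1, a transcription factor that drives these enzymes, was at 22.8 TPM in the mutant pool and 21.1 TPM in the wild-type pool.

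Pparg, the nuclear receptor that drives adipocyte differentiation and is also active in macrophages and endothelium, was at 3.80 TPM in the mutant pool and 6.47 TPM in the wild-type pool. Its difference was −0.64, and its ratio of 0.586 was the lowest of the 7 genes. Pparg lies on chromosome 6 at 115360951 to 115490399 on the plus strand (ENSMUSG00000000440.12). The table holds 1 value per gene, so its isoforms, which start at different promoters, cannot be told apart. Rxra, the partner with which PPAR-gamma binds DNA, was at 23.5 TPM in the mutant pool and 30.2 TPM in the wild-type pool. Cebpa, another main regulator of adipocytes, was at 5.13 TPM in the mutant pool and 5.71 TPM in the wild-type pool. The related receptor gene Ppard had more TPM in the mutant pool, 31.001 TPM against 19.8 TPM in the wild-type pool. Nr1h3, the liver X receptor alpha, was at 5.32 TPM in the mutant pool and 9.35 TPM in the wild-type pool (−0.71). Klf15, a Krüppel-like factor of adipocytes and muscle, had the highest difference of these regulators, 0.73, at 18.2 TPM in the mutant pool and 10.5 TPM in the wild-type pool. Of the 19 listed regulators, 18 had a mean TPM of at least 1, with 9 higher and 9 lower and a median difference of 0.0031. The share lower among all 17004 genes was 35.1%, with 1.72% at least 2-fold lower and a median of 0.14. Prdm16, a regulator of brown fat, was the 1 regulator at least 2-fold lower, at 1.48 TPM in the mutant pool and 4.39 TPM in the wild-type pool.

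Plin1 encodes perilipin-1, the droplet coat protein of adipocytes. It was at 1.33 TPM in the mutant pool and 1.23 TPM in the wild-type pool, near the bottom of the 17004 genes in both. Cidec, which enlarges droplets, was listed at 0 in the mutant pool and had 0.160 TPM in the wild-type pool. Plin1 lies on chromosome 7 at 79720218 to 79732903 (ENSMUSG00000030546.14) and Cidec on chromosome 6 at 113424634 to 113435760 (ENSMUSG00000030278.11), both on the minus strand. Another perilipin gene was more abundant. Plin2, expressed by many cells that hold droplets, was at 77.3 TPM in the mutant pool and 59.0 TPM in the wild-type pool (0.38).

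Of 21 other genes of the lipid droplet, triglyceride synthesis and lipolysis, 20 had a mean TPM of at least 1. In the mutant pool 12 were higher and 8 lower, with a median difference of 0.06. All 17004 genes had a median of 0.14, with 35.1% lower and 1.72% at least 2-fold lower. G0s2, an inhibitor of adipose triglyceride lipase, was the 1 gene at least 2-fold lower, at 10.7 TPM in the mutant pool and 27.4 TPM in the wild-type pool (−1.28). Pnpla2, which encodes that lipase, was at 34.8 TPM in the mutant pool and 33.2 TPM in the wild-type pool. Its activator Abhd5 was the most abundant of the list, at 130.3 TPM in the mutant pool and 113 TPM in the wild-type pool. Hilpda, a hypoxia-induced droplet protein, was at 13.7 TPM in the mutant pool and 21.8 TPM in the wild-type pool (−0.63).

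The secreted adipocyte proteins were scarce. Adipoq, adiponectin, was listed at 0 in the mutant pool and had 0.151 TPM in the wild-type pool. It lies on chromosome 16 at 23146536 to 23158028 on the plus strand (ENSMUSG00000022878.5). Cfd, complement factor D or adipsin, was at 0.153 TPM in the mutant pool and 0.728 TPM in the wild-type pool, and lies on chromosome 10 at 79890853 to 79892655 on the plus strand (ENSMUSG00000061780.6). All 3 genes with a mean TPM below 1, Adipoq, Cidec and Cfd, had more in the wild-type pool, at levels where single reads may decide the value. Retn, resistin, was the exception among the secreted proteins, at 5.52 TPM in the mutant pool and 4.48 TPM in the wild-type pool (0.25). It lies on chromosome 8 at 3655770 to 3660110 on the plus strand (ENSMUSG00000012705.16). Its relative Retnla was at 9.92 TPM in the mutant pool and 8.76 TPM in the wild-type pool, and Retnlg, made by neutrophils, at 1.13 TPM in the mutant pool and 1.21 TPM in the wild-type pool.

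The receptors and substrates of these secreted proteins were well expressed. Adipor1 was at 67.8 TPM in the mutant pool and 59.3 TPM in the wild-type pool, and Adipor2 at 21.8 TPM in the mutant pool and 34.3 TPM in the wild-type pool (−0.63). Cdh13, T-cadherin, which binds adiponectin, was at 162 TPM in the mutant pool and 144 TPM in the wild-type pool. C3, the central complement protein, was at 190 TPM in the mutant pool and 244 TPM in the wild-type pool. Cfb, the protein that factor D cleaves, was at 38.8 TPM in the mutant pool and 35.9 TPM in the wild-type pool.

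Promoter windows of 300 bases (250 before to 50 after the RefSeq start site, GRCm38.p6) were at hand for 7 of the 10 genes, in 10 windows, since Pparg and Cidec have several. No window of Fabp4, Scd1 or Lpl was used. Those of Adipoq and Plin1, at the low end, and of Cd36, at the high end, are shown to set scarce and abundant genes of the list side by side. The Cd36 window lies inside the GENCODE gene model, which begins at 17888801 on the minus strand, so it does not cover every Cd36 start site. Capitals mark the motif AGGTCA, to which nuclear receptors such as PPAR-gamma bind, and the motif TTNNGNAA of C/EBP factors, on either strand.
Adipoq, chr16:23146286-23146585, plus strand: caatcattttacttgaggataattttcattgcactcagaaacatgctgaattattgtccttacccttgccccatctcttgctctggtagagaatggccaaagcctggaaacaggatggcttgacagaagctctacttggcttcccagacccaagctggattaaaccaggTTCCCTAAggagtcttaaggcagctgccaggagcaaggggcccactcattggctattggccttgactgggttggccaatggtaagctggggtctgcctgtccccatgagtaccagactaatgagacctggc
Plin1, chr7:79732727-79733026, minus strand: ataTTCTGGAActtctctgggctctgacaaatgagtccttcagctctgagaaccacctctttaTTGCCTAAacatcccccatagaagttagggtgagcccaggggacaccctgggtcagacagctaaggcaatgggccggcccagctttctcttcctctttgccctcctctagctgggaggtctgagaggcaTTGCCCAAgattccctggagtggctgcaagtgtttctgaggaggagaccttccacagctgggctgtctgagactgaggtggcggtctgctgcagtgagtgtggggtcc
Cd36, chr5:17835847-17836146, minus strand: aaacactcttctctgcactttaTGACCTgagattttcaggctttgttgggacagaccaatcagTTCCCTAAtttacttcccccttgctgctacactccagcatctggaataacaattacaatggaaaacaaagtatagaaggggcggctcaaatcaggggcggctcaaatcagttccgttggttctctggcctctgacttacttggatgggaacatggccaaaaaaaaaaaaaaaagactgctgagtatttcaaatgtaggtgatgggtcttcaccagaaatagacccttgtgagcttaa
Adipoq held 1 match to the C/EBP motif, Plin1 held 3, and Cd36 held 1 beside 1 match to AGGTCA. Of the windows not shown, those of Retn and Cfd held neither motif, and those of Cidec held only the C/EBP motif. The Pparg window from 115421816 held 2 matches to the C/EBP motif and none to AGGTCA. Its other windows held 1 match to AGGTCA each and none to the C/EBP motif. Of all 32851 windows in the table, 40.7% held the C/EBP motif and 16.3% held AGGTCA. The full PPAR element, a direct repeat of AGGTCA with any 1 base between the copies and thus overlapping that motif at both ends, was in 0 of the 10 windows and in 13 of all windows (0.0396%). A match is a run of letters and not a measured binding site, and the absence of a match says only that these letters are not in this window.

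Each of the 7 genes but Scd1 had a difference inside the central 95% of genes in its abundance class, some of them toward the lower end. Among the 2671 genes averaging 50 to 200 TPM, the central 95% of differences lay between −0.52 and 0.80, and the median was 0.11. Lpl (−0.39) and Cd36 (−0.20) were inside this range and Scd1 (−0.65) was below it. For the 5453 genes from 5 to 20 TPM the range was −0.76 to 1.27, and the median was 0.14. This range holds Fabp4 (−0.65) and Pparg (−0.64) near its lower end. Fabp4, with a mean of 19.1 TPM, was close to the upper edge of that class, and the next class, from 20 to 50 TPM, had a lower limit of −0.53. For genes from 1 to 5 TPM the range was −1.44 to 1.93, which holds Plin1 and Retn. With 1 library per genotype, the spread between genes does not stand in for the spread between animals.

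**Figure D3:**
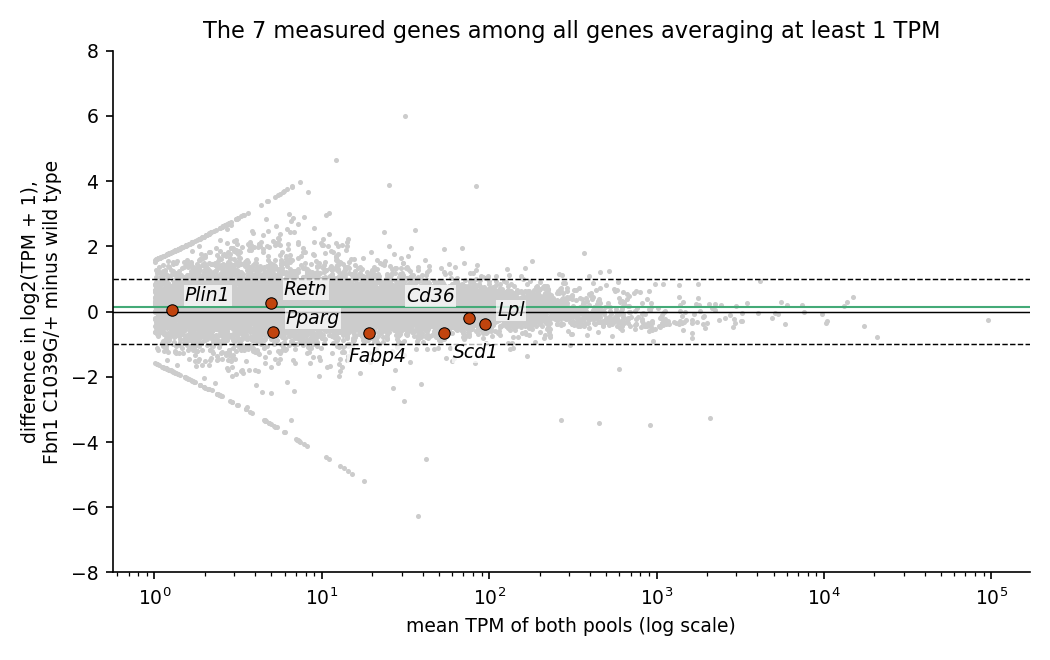
Mutant minus wild-type difference in log2(TPM + 1) against the mean TPM of both pools for the 17004 genes averaging at least 1 TPM (grey) and the 7 of the 10 genes among them (orange). Dashed lines mark a 2-fold difference, the green line marks the median of all genes (0.14), and Scd1, Fabp4 and Pparg lie lowest of the 7 (−0.65 to −0.64).

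Other adipocyte genes lay on both sides of 0. Of the 16 further genes of mature adipocytes with a mean of at least 1 TPM, 10 were higher and 6 lower in the mutant pool, with a median difference of 0.04. Against this, 35.1% of all 17004 genes were lower and 1.72% at least 2-fold lower, with a median of 0.14. Trarg1, a membrane protein of adipocytes found in the table under its older symbol Tusc5, was the 1 gene at least 2-fold lower, at 0.530 TPM in the mutant pool and 3.16 TPM in the wild-type pool. These are low values, which few reads may carry, and Trarg1 reached a mean of 1 TPM only through the wild-type pool. Lipe, hormone-sensitive lipase, had a difference of 0.39. Adrb3, the beta-3 adrenergic receptor that triggers lipolysis in fat, was at 12.4 TPM in the mutant pool and 7.14 TPM in the wild-type pool (0.72). Cyp2e1, a cytochrome P450 of liver and fat, was the most abundant of this list, at 188 TPM in the mutant pool and 261 TPM in the wild-type pool (−0.47).

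Markers of other cells that express Lpl, Cd36 or Fabp4 are set beside these values. For scale, 35.1% of all 17004 genes were lower in the mutant pool, and their median difference was 0.14. Of 13 cardiac muscle genes, 2 were higher and 11 lower in the mutant pool, with a median of −0.53 and a summed level of 2325 TPM in the mutant pool and 3182 TPM in the wild-type pool. Of 14 capillary endothelial genes, 12 had a mean TPM of at least 1, with 4 higher and 8 lower, a median of −0.30, and a sum of 731 TPM in the mutant pool and 763 TPM in the wild-type pool. Car4 was the 1 gene of that list at 0, in the wild-type pool only. Of 14 macrophage genes, 11 were higher and 3 lower, with a median of 0.24 and a sum of 2651 TPM in the mutant pool and 2243 TPM in the wild-type pool. The mutant sum was 0.731 times the wild-type sum for cardiac muscle, 0.958 times for capillary endothelium and 1.18 times for macrophages, and 0.753 times for the 10 lipid genes. The part of these cell types in the values of Lpl, Cd36 and Fabp4 was not tested.

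**Figure D4:**
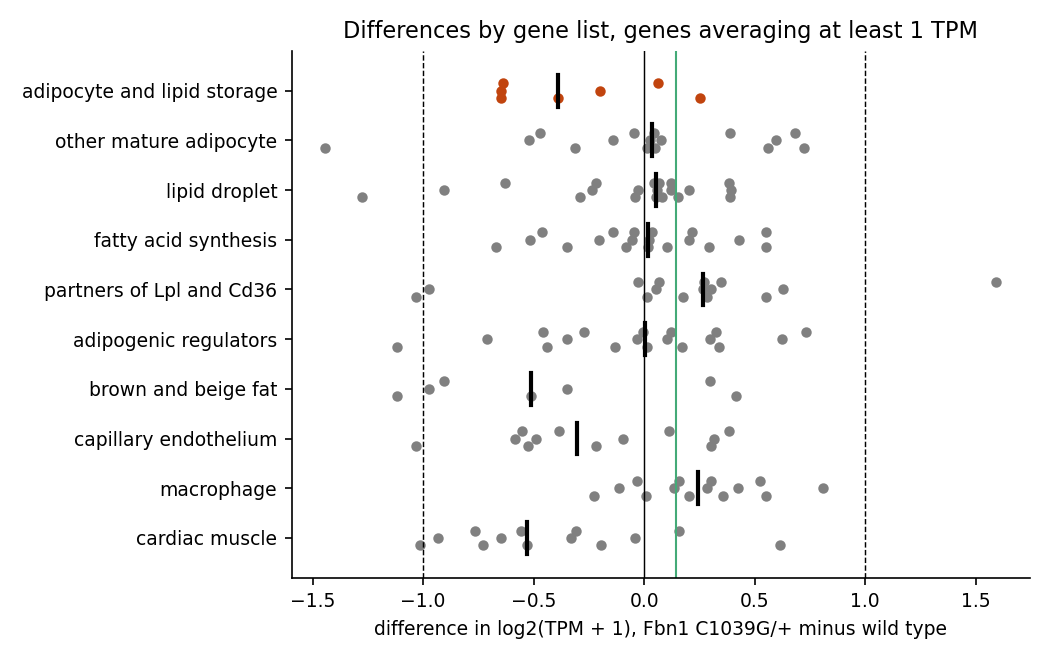
Mutant minus wild-type difference in log2(TPM + 1) of each gene with a mean TPM of at least 1 (points) and the median (black bar) for the 10 genes' own list (orange) and 9 other lists (grey). Dashed lines mark 2-fold and the green line the median of all 17004 genes (0.14). The list of adipocyte and lipid storage genes (−0.39) lies between those of capillary endothelium (−0.30) and brown and beige fat (−0.51), and cardiac muscle lies lowest (−0.53).

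Some facts of both libraries bear on all of these values. Most genes had slightly more TPM in the mutant pool, so a difference of 0 lies below the median gene by 0.14. The 4 Y-linked genes Ddx3y, Eif2s3y, Kdm5d and Uty summed to 143 TPM in the mutant pool and 101 TPM in the wild-type pool, and the part of the share of male tissue in the lipid genes was not tested. Fbn1 itself was at 126 TPM in the mutant pool and 108 TPM in the wild-type pool. A missense allele need not change the amount of mRNA, so this does not check the genotype labels. The sequencing depth is unknown, as TPM does not keep it.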

How the data were processed

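RNA of the pooled valves went through Ovation RNAseq v2 amplification, was turned into Nextera XT libraries and was sequenced on an Illumina HiSeq, per the labels' protocols. Trimmomatic (a read trimmer), HISAT2 (an aligner), kallisto (an abundance estimator) and the mm10 genome are named per the submitters' processing notes. The sources used here give neither their versions and roles nor the annotation nor how transcripts were summed to genes. Values in the deposited table are TPM, per the file header, which sum to 999945 in the mutant and 999964 in the wild-type column. Amplified reads without molecular identifiers are not independent molecules, reads shared by near-identical genes are divided by an estimate, and depth is unknown, so no interval or detection limit was computed.

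Differences were taken as mutant minus wild type on the log2(TPM + 1) scale (pseudocount 1), which understates differences of low genes. Calls used a 2-fold limit and a mean TPM of at least 1. Beside the 10 genes, 17 other lists were summarised, some of which share genes. The 10 genes and all lists were chosen with earlier results of these data known. All 10 genes are named, and from other lists mainly the most abundant genes and those with the largest differences. Gene models, coordinates and transcripts came from GENCODE M21 (GRCm38), which may not be the authors' annotation. No exon of another gene overlapped those of the 10 genes in it. Promoters came from RefSeq. The alternatives tried were pseudocounts of 0.1 and 5, filters of none and of 5 TPM on average, median centring, quantile normalization, and leaving out mitochondrial, globin, ribosomal protein, Gm and Rik genes or the cardiac muscle list. Python 3.11.15, pandas 2.3.3 and Biopython 1.88 were used.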

Additional observations from a re-analysis of the deposited data

How the results depend on the processing

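Under each of the 8 alternatives, 0 of the genes kept were at least 2-fold lower and 0 at least 2-fold higher. Most settings kept 7 of the 10 genes, while a mean TPM of at least 5 kept 5 and no filter kept 10. Adipoq, Cidec and Cfd were thus counted only without a filter and at a pseudocount of 1, which understates differences of low genes. Lpl, Cd36, Scd1, Fabp4 and Pparg had differences below 0 under every one. Their ranges were −0.52 to −0.37 for Lpl, −0.32 to −0.19 for Cd36, −0.77 to −0.60 for Scd1, −0.79 to −0.54 for Fabp4 and −0.85 to −0.38 for Pparg. Retn was above 0 wherever it was kept (0.04 to 0.30), and Plin1 lay between −0.14 and 0.10, below 0 under median centring and quantile normalization. The median of the list was −0.64 with a mean TPM of at least 5, where Plin1 and Retn drop out by construction, and lay between −0.52 and −0.30 otherwise. Retn, with a mean of 4.99993 TPM, missed that filter narrowly, so this median depends on where the limit was set. Without a filter, 8 of the 10 genes were lower in the mutant pool, as Adipoq, Cidec and Cfd then count, against 24.4% of all 33640 genes. That share is low partly by construction, since a gene with no wild-type TPM cannot be lower in the mutant pool. Such genes number 12542, and 0 of the 10 are among them, so these shares are not like for like. Under median centring and under quantile normalization 6 of 7 were lower, against 46.5% and 51.5% of all genes.

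Over all genes, a pseudocount of 0.1 gave 464 lower and 1264 higher by 2-fold, a pseudocount of 5 gave 87 lower and 209 higher, and a mean TPM of at least 5 gave 103 lower and 360 higher, against 293 lower and 818 higher in the main setting. Quantile normalization gave 462 lower and 540 higher, a share of 53.9% higher among those called against 73.6%. Leaving out mitochondrial, globin, ribosomal protein, Gm and Rik genes gave 499 higher (64.2%), and median centring gave 64.4%. No paired analysis was possible because there is 1 library per genotype, and for the same reason no replicate could be left out. The pooled design limits every value to these libraries, and unknown depth limits the genes under 1 TPM.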

Other observations

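Brown fat genes, fibroblast and progenitor genes and mesothelial genes were also read. Of 11 brown and beige fat genes, 7 had a mean TPM of at least 1, and 2 of these were higher and 5 lower in the mutant pool, with a median difference of −0.51. Over all 17004 genes 35.1% were lower and 1.72% at least 2-fold lower, with a median of 0.14. Dio2 (0.41) and Ppargc1a (0.30) were the 2 higher genes, and Prdm16 (−1.12) was the 1 gene at least 2-fold lower. Ucp1, the uncoupling protein that defines brown fat, was at 0.198 TPM in the mutant pool and 0.0561 TPM in the wild-type pool, and Elovl3 was listed at 0 in both. Fabp3, Cox8b and Cox7a1, the most abundant of that list, are genes that heart muscle also uses, and its part in their values was not tested. Cox8b, a cytochrome oxidase subunit of heart and brown fat, was at 51.5 TPM in the mutant pool and 73.9 TPM in the wild-type pool, and Cox7a1, another such subunit, at 43.2 TPM in the mutant pool and 55.3 TPM in the wild-type pool.

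Genes of fibroblasts and fat progenitors were abundant. Of 12 such genes, 11 had a mean TPM of at least 1, with 7 higher and 4 lower and a median difference of 0.08. For all 17004 genes the median was 0.14, with 35.1% lower and 4.81% at least 2-fold higher. Ly6a, which encodes Sca-1, was at 766 TPM in the mutant pool and 502 TPM in the wild-type pool, and Cd34 at 254 TPM in the mutant pool and 224 TPM in the wild-type pool. Dpp4, a marker of early fat progenitors, was the 1 gene of the list at least 2-fold higher, at 5.46 TPM in the mutant pool and 1.65 TPM in the wild-type pool. Pdgfra was at 93.5 TPM in the mutant pool and 88.2 TPM in the wild-type pool. Dcn, the most abundant of the list, was at 9304 TPM in the mutant pool and 11409 TPM in the wild-type pool (−0.29). Pdgfrb had the lowest difference, −0.46, at 51.2 TPM in the mutant pool and 70.8 TPM in the wild-type pool. The list summed to 10796 TPM in the mutant pool and 12580 TPM in the wild-type pool, mostly from Dcn. The 8 mesothelial genes summed to 3.65 TPM in the mutant pool and 5.31 TPM in the wild-type pool, and 7 of them had a mean TPM below 1. The 8 neutrophil genes summed to 104 TPM in the mutant pool and 18.5 TPM in the wild-type pool, with 4 of 7 at least 2-fold higher, against 4.81% of all 17004 genes. S100a8, S100a9, Csf3r and Cxcr2 were those 4 and carried most of the mutant sum. Mpo (0.13), Retnlg (−0.05) and Camp (−0.35) did not share this rise, and Ly6g had 0 TPM in either pool. The list was thus mixed, and a difference in neutrophil number was not tested. The 6 Schwann cell genes summed to 66.0 TPM in the mutant pool and 81.0 TPM in the wild-type pool, with a median difference of −0.03 over the 5 with a mean TPM of at least 1.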
